A study of Homo sapiens with 10 samples.

Results

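The 2 isoforms of the histone variant H2A.Z were set against each other by comparing 2 total RNA sequencing libraries of U2OS cells depleted of H2A.Z.1 directly with 2 libraries of U2OS cells depleted of H2A.Z.2. These are 4 of the 10 libraries of the series, chosen by the siRNA named in their labels. U2OS is an established human osteosarcoma cell line with mesenchymal features. All cells were transfected with siRNA and collected 3 days later: siH2A.Z.1 alone, siH2A.Z.2 alone, both siRNAs together, or a control siRNA (numbered 3 or 4 in the labels), with 2 libraries each. Each isoform was depleted by 1 siRNA, so a difference between the depletions cannot be told apart from a difference between these 2 siRNAs in their other effects. The contrast itself takes no control library, but all 10 libraries entered the scaling, the low-count filter and the estimate of the spread. The values of the controls and of the combined depletion are given beside it only where they help to place a gene. The study's methods say that these cells were transfected in parallel, so p-values measure the spread between these libraries, which may be technical.

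H2A.Z replaces H2A in a fraction of nucleosomes, in particular around transcription start sites and at enhancers, where it is placed by the SRCAP and EP400 complexes and removed by ANP32E and INO80. Vertebrates have 2 genes for it, H2AFZ for H2A.Z.1 and H2AFV for H2A.Z.2 (now named H2AZ1 and H2AZ2), whose proteins differ at very few residues. Transcripts of either can therefore be removed while a near-identical protein remains, and the question of the comparison is which genes separate the loss of the 2 isoforms.

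The siRNAs decide what was depleted, so the sense strands that the study lists under these names are shown. The stretch complementary to guide positions 2 to 8 (the seed) is in capitals. The study also used another H2A.Z.2 siRNA in some experiments, and the labels do not say which was used here. The H2A.Z.2 sequence shown is assumed to be that of these libraries.
H2A.Z.1 siRNA: guaguggguuuUGAUUGAg
H2A.Z.2 siRNA: ggugacaguugUGUGUUGa
The H2A.Z.1 sequence matched transcripts of 1 gene only, H2AFZ (hg38 chr4:99948086-99950355, minus strand), at chr4:99948214-99948232 in the 3'UTR within exon 5 of 5. The H2A.Z.2 sequence matched only H2AFV (chr7:44826791-44848087, minus strand), at chr7:44834295-44834313, also in the 3'UTR within exon 5 of 5. Neither siRNA has a full match in the other gene. Guides can also act on other transcripts through their seeds, which differ between the 2 siRNAs, so seed matches in 3'UTRs were counted as well.

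Both targets were lowered in the libraries labelled so. H2AFZ was at 19.6 and 19.1 CPM (counts divided by the library size in megareads, after TMM scaling of the library sizes) upon H2A.Z.1 depletion and at 241 and 261 CPM upon H2A.Z.2 depletion. The log2 fold change, given throughout as siH2A.Z.1 minus siH2A.Z.2, was -3.70 ± 0.08 (SE, 2 against 2 libraries; edgeR quasi-likelihood F test, adjusted p = 2.55e-10). H2AFV was at 200.2 and 183 CPM upon H2A.Z.1 and at 63.8 and 65.5 CPM upon H2A.Z.2 depletion, a log2 fold change of 1.57 ± 0.08 (edgeR, adjusted p = 2.68e-08). The groups did not overlap for either gene. The depletions differed in depth: H2AFZ did not exceed 19.6 CPM with its siRNA alone, while H2AFV stayed at 63.8 CPM or more with its own. Upon H2A.Z.2 depletion H2AFZ lay within the range of the control libraries, at 279 and 277 CPM with siCtrl 3 and 204 and 226 CPM with siCtrl 4. H2AFV was at 143 and 147 CPM with siCtrl 4 and 248 and 239 CPM with siCtrl 3, and its level upon H2A.Z.1 depletion lay between these.

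**Figure D1:**
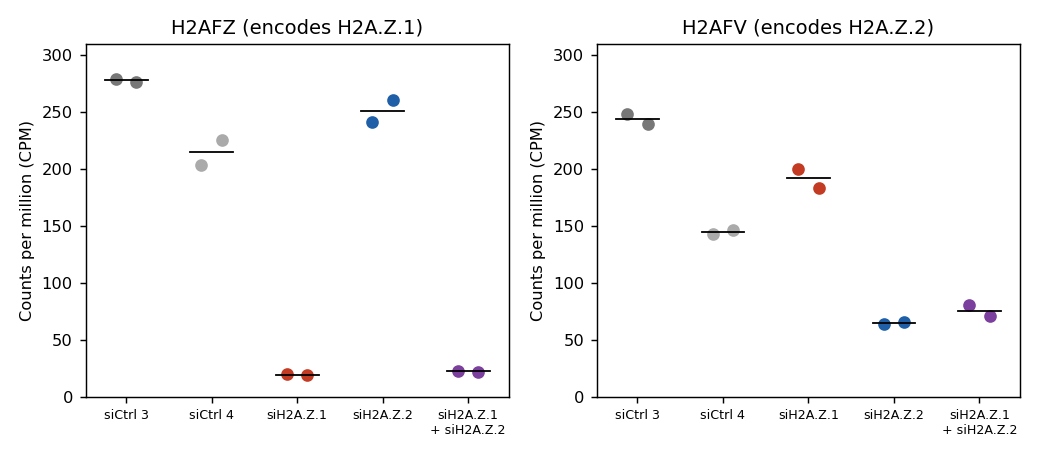
Levels of H2AFZ (left) and H2AFV (right) in all 10 libraries, in CPM on a linear axis from 0. Points are single libraries and black lines the means of 2. H2AFZ is low in the 4 libraries that received siH2A.Z.1, and H2AFV in the 4 that received siH2A.Z.2, where it remains at 63.8 CPM or more.

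The libraries of H2A.Z.1 depletion held 17961273 and 20196054 counts in total, and those of H2A.Z.2 depletion 25214194 and 26946836, so low genes are measured less precisely in the former. Over 16486 genes, log2 CPM correlated at 0.991 and 0.992 between the 2 libraries of a depletion and at 0.948 to 0.951 between libraries of different depletions (Pearson's r across genes, a description). Of the markers of the cell line, VIM (at least 1502 CPM), SPARC (at least 1556 CPM) and COL1A1 (at least 373 CPM) were abundant in every library, while COL1A2 did not exceed 1.25 CPM. ALPL, also a marker of the cell line, ranged from 0.402 to 8.12 CPM. Among markers of other cells, the highest was endothelial VWF, at 2.37 to 7.74 CPM. Epithelial CDH1 reached 3.99 CPM and CD34, listed with blood, 3.17 CPM. Epithelial EPCAM did not exceed 2.89 CPM and KRT19 0.121 CPM, and the leukocyte gene PTPRC did not exceed 1.21 CPM.

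The 2 depletions differed in the level of 48.0% of the genes tested. Of 16486 genes tested, 3524 (21.4%) were higher and 4385 (26.6%) were lower upon H2A.Z.1 than upon H2A.Z.2 depletion, at a Benjamini-Hochberg adjusted p under 0.05 and a fold change above 1.25. The median size of the called differences was 0.76 on the log2 scale, with a median SE of 0.12. Groups did not overlap for 3523 of the genes called higher and 4378 of those called lower, where 74.8% of all genes tested had groups that did not overlap. Above a 2-fold difference there were 962 higher (5.84%) and 1810 lower (11.0%). The direction of the majority depended on the scaling. With TMM the median log2 difference over the genes tested was -0.01, whereas library sizes alone moved it up by 0.11 and gave 4549 higher and 3695 lower genes, and upper-quartile factors moved it by 0.10 and gave 4483 and 3726. With TMM 44.6% of the called genes were higher, against 55.2% with library sizes alone. The genes named below were therefore required to keep their call and sign with 3 other scalings and without each of the 10 libraries in turn. Exempt were the 10 genes taken from the study, genes said to be chosen after their values were seen, and genes named within a run of neighbours. Of all calls, 5540 (2496 higher and 3044 lower) met this requirement. The adjusted p of a named gene that met it did not exceed 0.00903 (edgeR).

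The largest differences toward H2A.Z.1 depletion were in genes at low levels upon H2A.Z.2 depletion (at most 3.64 CPM in a library). KIAA1210 (chrX:119078635-119150579), which encodes an acrosomal protein, was at 22.9 and 19.8 CPM upon H2A.Z.1 depletion and at 0.414 and 0.227 CPM upon H2A.Z.2 depletion (log2 fold change 6.05 ± 0.32). It was also at 34.9 and 23.9 CPM in the combined depletion, and at most 0.0541 CPM with a control siRNA. KIAA1210 was thus high in the 4 libraries that received the H2A.Z.1 siRNA and near 0 in the other 6. CHI3L1, a secreted chitinase-like glycoprotein, was at 16.0 and 16.8 against 0.497 and 0.379 CPM (5.21 ± 0.22). DMBT1, a scavenger receptor cysteine-rich protein, was at 94.9 and 83.7 against 3.397 and 3.64 CPM (4.66 ± 0.14), and FUT1, the fucosyltransferase that makes the H antigen, at 27.6 and 27.5 against 0.994 and 1.17 CPM (4.66 ± 0.21). For DMBT1 the combined depletion reached only 14.5 and 12.9 CPM and the control libraries 4.77 and 5.90 and 4.37 and 3.55 CPM, all below the 2 libraries of H2A.Z.1 depletion alone. The others of the 10 were PLCH1 (a phospholipase C), THSD7A, MYCT1, LCP1 (the actin-bundling plastin 2), MYOZ2 and A2M (the protease inhibitor alpha-2-macroglobulin), with log2 fold changes from 3.83 to 4.65. Not all of these were high relative to both control siRNAs. LCP1 was at 22.1 and 37.3 CPM upon H2A.Z.1 and 1.91 and 2.16 CPM upon H2A.Z.2 depletion, but at 32.2 and 33.0 CPM with siCtrl 4 and 4.22 and 4.38 CPM with siCtrl 3. A2M likewise was at 14.7 and 12.5 CPM upon H2A.Z.1 depletion, 11.4 and 10.7 CPM with siCtrl 4 and 0.586 and 0.541 CPM with siCtrl 3.

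On the side of H2A.Z.2 depletion, the 10 largest differences ranged from -5.15 to -3.86 on the log2 scale. TNFAIP6, a secreted hyaluronan-binding protein, was at 0.374 and 0.475 CPM upon H2A.Z.1 and 16.6 and 14.1 CPM upon H2A.Z.2 depletion (-5.15 ± 0.28). Its controls lay in between, at 1.76 and 0.974 and 1.78 and 2.18 CPM, as did the combined depletion at 1.74 and 2.18 CPM. EFR3B (chr2:25042076-25159135), which helps to hold the phosphatidylinositol 4-kinase complex at the plasma membrane, was at 5.18 and 5.98 against 159 and 165 CPM (-4.85 ± 0.18). DYSF, which encodes the membrane repair protein dysferlin, was at 3.74 and 4.61 against 84.3 and 85.3 CPM (-4.34 ± 0.12). CAV1, the coat protein of caveolae, was at 14.8 and 16.9 against 264 and 293 CPM (-4.13 ± 0.10). The control libraries of these 3 genes were closer to H2A.Z.2 depletion, with EFR3B at 102 and 112 and 106 and 93.6 CPM, DYSF at 95.3 and 90.6 and 93.6 and 86.8 CPM and CAV1 at 161 and 178 and 158 and 174 CPM. MOB3B went the other way about: its controls, at 10.2 and 12.6 and 5.70 and 7.27 CPM, were closer to H2A.Z.1 depletion (3.79 and 3.28 CPM) than to H2A.Z.2 depletion (57.4 and 69.9 CPM). The other 5 were RAB7B, a small GTPase of endosomes, the antisense RNA MSC-AS1, PRLR (the prolactin receptor), GNAQ (a G protein alpha subunit) and OLFML3, with log2 fold changes from -4.41 to -3.86.

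**Figure D2:**
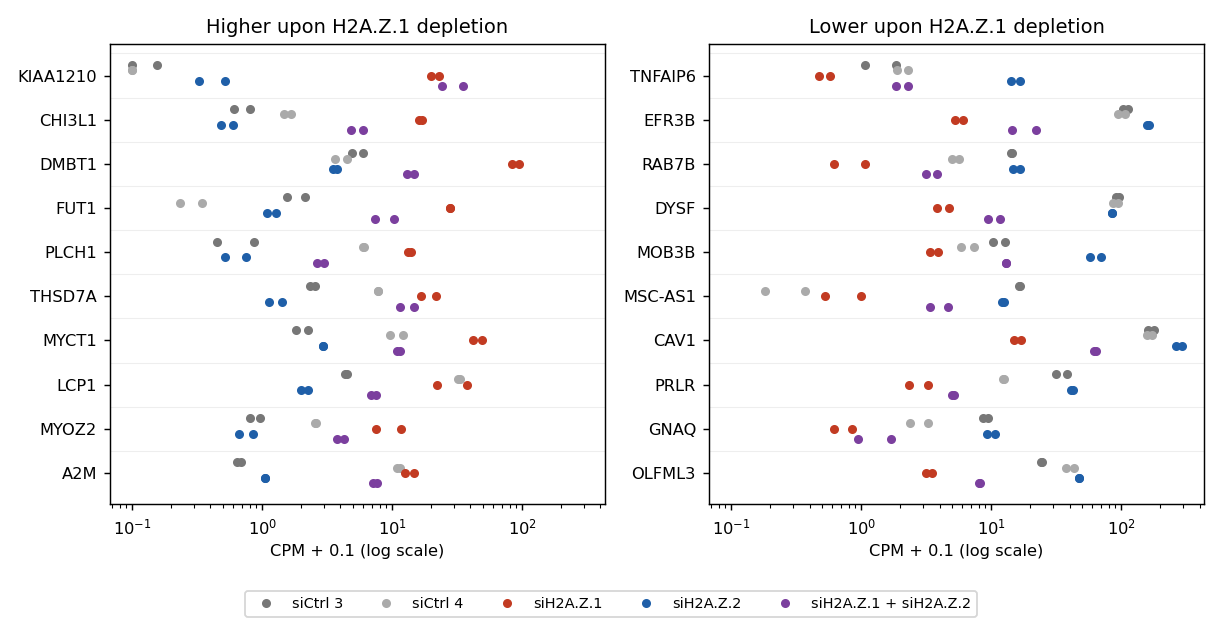
CPM plus 0.1 in each of the 10 libraries (log scale) for the 10 genes with the largest stable difference in each direction. Red points (siH2A.Z.1) and blue points (siH2A.Z.2) never overlap, which the choice of these genes required. The combined depletion (purple) lies between them for 9 of the 10 genes on the left and all 10 on the right, and the 2 control siRNAs (grey) differ from each other for several genes, such as LCP1, A2M and MSC-AS1.

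In absolute CPM, the genes that differed most were of other kinds. Upon H2A.Z.1 depletion the largest gains over H2A.Z.2 depletion were in RN7SK, the noncoding RNA that holds P-TEFb inactive, at 10514 and 11718 against 8954 and 7576 CPM (0.43 ± 0.12), in RPS6 at 1909.6 and 1912 against 1012 and 1133 CPM (0.83 ± 0.09), and in RPL4 at 2314 and 2535 against 1576 and 1739.6 CPM (0.55 ± 0.08). RNU4-1 and RNU4-2, near-identical genes of the U4 spliceosomal RNA whose reads can be split arbitrarily, came next, with RNU4-1 at 859 and 1284 against 484 and 279 CPM (1.49 ± 0.34). The 2 libraries of a depletion lay far apart for this gene. The largest deficits were in PLEC (the cytolinker plectin) at 887 and 548 against 2658 and 1435 CPM (-1.51 ± 0.31), CCND2 (cyclin D2) at 1598 and 1677 against 2832 and 2919.7 CPM (-0.81 ± 0.07), PKM at 1247 and 1245 against 2496 and 2462 CPM (-0.99 ± 0.06), PABPC1 (the cytoplasmic poly(A)-binding protein) and ENO1, of which PKM and ENO1 are enzymes of glycolysis. For PLEC the 2 libraries of H2A.Z.2 depletion differed by more than the lower of them differed from the higher library of H2A.Z.1 depletion.

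Integrins, laminins and collagens were lower upon H2A.Z.1 than upon H2A.Z.2 depletion more often than higher. Integrins are the alpha-beta receptors that tie cells to matrix, and laminins are trimers of the basement membrane. Of 37 integrin and laminin genes tested, 21 were lower (56.8%) and 3 higher (8.11%), with a median log2 fold change of -0.62 beside -0.01 over all genes. Over all genes tested 26.6% were lower and 21.4% higher, the measure for the shares of this and the following lists. ITGAV, the alpha subunit of the vitronectin receptors, was at 81.2 and 72.1 against 411 and 436 CPM (-2.46 ± 0.09). ITGB3, one of its beta partners, was at 2.03 and 1.80 against 16.2 and 14.7 CPM (-3.01 ± 0.21). The control libraries of ITGAV were split, at 465 and 444 CPM with siCtrl 3 and 129.7 and 148 CPM with siCtrl 4. LAMA1, the alpha1 chain of laminin-111, went against the list, at 532 and 653 against 283 and 267 CPM (1.11 ± 0.09). The highest log2 fold change of the list was 5.57, in a gene that did not meet the rule for naming genes. With upper-quartile factors or library sizes alone the counts became 17 lower and 5 higher.

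Of 33 collagen genes, 17 were lower (51.5%) and 5 higher (15.2%), with a median of -0.48. COL5A2, a fibrillar collagen that joins collagen I fibrils, was at 10.7 and 10.5 against 52.6 and 63.6 CPM (-2.45 ± 0.12). COL1A1, the main collagen of bone, was at 601 and 373 against 1405 and 944 CPM (-1.27 ± 0.23), with 2 libraries per group that lay far apart. Among the higher members were the low-level COL20A1 at 6.19 and 3.28 against 1.20 and 0.455 CPM (2.52 ± 0.42) and COL4A3, a basement membrane chain, at 2.67 and 2.09 against 0.580 and 0.644 CPM (1.94 ± 0.28).

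Secreted proteases and their inhibitors were lower for 20 of 39 genes (51.3%, against 26.6% of all genes tested). Higher were 7 (17.9%, against 21.4%), and the median was -0.71. PLAT, the tissue plasminogen activator, was at 13.1 and 14.2 against 65.2 and 62.8 CPM (-2.23 ± 0.08). ADAMTS1, which cleaves proteoglycans, was at 17.6 and 20.8 against 103 and 111 CPM (-2.48 ± 0.11), and ADAMTS2, the procollagen N-propeptidase, at 1.28 and 1.61 against 11.4 and 8.11 CPM (-2.74 ± 0.25). Matrix metalloproteinases went both ways. MMP10 was lower, at 0.213 and 0.380 against 4.10 and 5.46 CPM (-3.97 ± 0.34), while its close relative MMP3 was higher, at 50.3 and 61.1 against 8.24 and 5.84 CPM (2.99 ± 0.15). MMP3 with the controls was at 4.41 and 4.98 CPM (siCtrl 3) and 39.2 and 36.8 CPM (siCtrl 4), so the control siRNAs differed as well.

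Guidance cues, the semaphorins and ephrins with their plexin and Eph receptors, were lower for 27 of 47 genes (57.4%). Higher were 4 (8.51%), and the median was -0.74. EPHB2, a receptor tyrosine kinase for ephrin-B ligands, was at 14.0 and 13.9 against 157 and 150.0 CPM (-3.46 ± 0.07; edgeR, adjusted p = 2.55e-10). PLXNB3 and SEMA3G were lower at much lower levels. Against the list, EPHA4 was at 176 and 186 against 59.5 and 59.9 CPM (1.60 ± 0.08), and PLXNA2, a semaphorin receptor, at 205 and 201 against 47.5 and 40.8 CPM (2.20 ± 0.09). Cadherins and protocadherins, the calcium-dependent cell adhesion molecules, did not lean one way, with 20 of 73 higher (27.4%) and 19 lower (26.0%), near the shares of all genes tested (13 higher by DESeq2). PCDH7 was higher at 23.4 and 20.5 against 7.87 and 6.60 CPM (1.60 ± 0.13), and PCDHGC3, whose last exons are shared by the whole gamma protocadherin cluster so that its reads are uncertain, lower at 16.2 and 15.7 against 43.9 and 45.2 CPM (-1.48 ± 0.09). CDH1, which encodes E-cadherin and is scarcely expressed in these cells, was at 0.374 and 0.427 against 2.32 and 2.65 CPM (-2.61 ± 0.28).

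In the TGF-beta and BMP pathway 18 of 36 genes were lower and 6 higher (median -0.44). Of the ligands and what holds them, TGFB3 was at 5.66 and 5.22 against 18.7 and 18.1 CPM (-1.76 ± 0.14), and LTBP1, which anchors latent TGF-beta in the matrix, at 19.1 and 21.0 against 173 and 170.4 CPM (-3.10 ± 0.10). The co-receptor TGFBR3 was at 6.30 and 5.603 against 26.9 and 28.3 CPM (-2.22 ± 0.11). The BMP side was in the other direction for BMP4 itself, at 55.5 and 44.4 against 18.6 and 19.3 CPM (1.40 ± 0.11), for ID4, from a family of BMP-induced transcription inhibitors, at 6.24 and 5.32 against 2.57 and 2.62 CPM (1.15 ± 0.18), and for FST, which encodes follistatin, an extracellular antagonist of activins, at 45.5 and 40.1 against 20.8 and 23.2 CPM (0.96 ± 0.10). LTBP1 levels upon H2A.Z.2 depletion also exceeded those of the control libraries (63.0 and 51.5 and 65.7 and 67.6 CPM), so both depletions lay on opposite sides of the controls.

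WNT pathway genes were lower for 19 of 42 (45.2%, against 26.6% of all genes tested). Higher were 9 (21.4%, the same share as of all genes tested), and the median was -0.34. The ligand WNT5B was at 8.97 and 6.84 against 49.95 and 46.2 CPM (-2.61 ± 0.16), and WNT7B at 0.267 and 0.190 against 3.89 and 2.58 CPM (-3.80 ± 0.43), whereas WNT7A was at 6.67 and 4.61 against 2.03 and 2.12 CPM (1.43 ± 0.27). LGR4, the receptor of R-spondins, was lower at 5.18 and 4.37 against 25.8 and 28.4 CPM (-2.51 ± 0.12). RNF43, the ubiquitin ligase that removes WNT receptors and that R-spondins inhibit through LGR receptors, was higher at 18.3 and 18.8 against 1.95 and 2.502 CPM (3.05 ± 0.15). Of 18 genes around YAP, 3 were higher (16.7%) and 4 lower (22.2%), near the 21.4% and 26.6% of all genes tested. With library sizes alone these were 4 and 3. SAV1, STK4 and LATS2, members of the kinase core of the Hippo pathway, were higher, with SAV1 at 155 and 159 against 72.3 and 77.6 CPM (1.07 ± 0.07). NF2 (merlin), which acts above them, was lower at 295 and 297 against 619 and 612 CPM (-1.06 ± 0.06). The YAP target CYR61 was also lower, at 330.2 and 366 against 552 and 539.8 CPM (-0.65 ± 0.07).

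For the lineage of these cells, 5 of 10 osteoblast genes were lower and 2 higher (median -0.78). ALPL, bone alkaline phosphatase, was at 0.640 and 0.855 against 8.12 and 6.56 CPM (-3.27 ± 0.29), and SPP1 (osteopontin) at 1.44 and 1.99 against 9.90 and 9.93 CPM (-2.52 ± 0.19). TNFRSF11B, which encodes osteoprotegerin, the decoy receptor for RANKL, was higher at 115 and 120.0 against 36.8 and 36.1 CPM (1.69 ± 0.10). Of 9 mesenchymal factors and markers, 6 were lower by edgeR (66.7%, against 26.6% of all genes tested). Among them were SNAI2 (Slug) at 4.96 and 5.84 against 18.6 and 16.3 CPM (-1.69 ± 0.14) and FN1 (fibronectin) at 791 and 903 against 1379 and 1292 CPM (-0.66 ± 0.08). None of the 9 was called higher by edgeR or DESeq2, and 0 were higher at an unadjusted p under 0.05. Of 31 HOX genes, 9 were lower (29.0%, close to the 26.6% of all genes tested) and 4 higher (1 higher by DESeq2), with a median of -0.08. Among the lower, HOXC4 was at 1.49 and 1.42 against 3.81 and 3.34 CPM (-1.29 ± 0.23), HOXC5 at 0.694 and 0.237 against 2.24 and 2.12 CPM (-2.25 ± 0.38) and HOXB13, a posterior HOX gene, at 3.20 and 3.23 against 7.95 and 8.19 CPM (-1.33 ± 0.17). The 5 neighbours HOXC13, HOXC11, HOXC10, HOXC6 and HOXC9, with the noncoding HOTAIR between them, formed an unbroken run of lower genes (chr12:53938831-54030823), a run chosen after its values were seen.

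Mitosis genes were lower upon H2A.Z.1 than upon H2A.Z.2 depletion, for 30 of 41 genes (73.2%, against 26.6% of all genes tested). Only 1 was higher (2.44%, against 21.4%), and the median was -0.55. Summed over the list, they held 4648 and 4628 CPM upon H2A.Z.1 depletion and 7016 and 7388 CPM upon H2A.Z.2 depletion. FOXM1, the transcription factor that drives many G2 and M phase genes, was at 210.0 and 233 against 464 and 466 CPM (-1.07 ± 0.07). PRC1, which bundles the central spindle, was at 59.8 and 54.8 against 124 and 132 CPM (-1.16 ± 0.08), and the centrosomal kinase NEK2 at 23.6 and 18.9 against 47.3 and 47.0 CPM (-1.15 ± 0.12). The member that went against the list was BIRC5 (survivin), at 112 and 98.4 against 75.3 and 80.3 CPM (0.44 ± 0.08), low in both depletions beside 212 and 202 CPM with siCtrl 3 and 144 and 141 CPM with siCtrl 4. The control siRNAs disagreed on these genes. Their summed level was 6796 and 6994 CPM with siCtrl 3, close to H2A.Z.2 depletion, and 4054 and 4421 CPM with siCtrl 4, close to H2A.Z.1 depletion. The direct comparison takes no control level and does not say which of the depletions departs from undepleted cells.

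Other cell cycle lists moved less. Of 24 G1 genes, 7 were lower (29.2%, close to the 26.6% of all genes tested) and 2 higher. CCND3 (cyclin D3) was at 14.9 and 12.1 against 27.8 and 23.9 CPM (-0.94 ± 0.12) and E2F1 at 20.0 and 18.4 against 39.5 and 33.5 CPM (-0.92 ± 0.11), while E2F2 was higher, at 42.9 and 36.8 against 21.7 and 24.1 CPM (0.80 ± 0.10). DNA replication genes were lower for 11 (26.2%, close to the 26.6% of all genes tested) and higher for 3 of 42, which became 7 and 6 with library sizes alone. GINS1, a subunit of the replicative helicase, was at 38.1 and 32.1 against 57.0 and 60.9 CPM (-0.75 ± 0.10), and MCM3, also of that helicase, was higher at 272 and 271 against 186 and 199.9 CPM (0.49 ± 0.07). Replication-dependent histone genes, whose transcripts lack poly(A) tails and are seen here because rRNA was depleted instead, were lower for 13 of 41 (31.7%, against 26.6% of all genes tested). None was higher by edgeR or DESeq2, or at an unadjusted p under 0.05 (0 of 41), but 2 were called higher without siH2A.Z.1 replicate 2. HIST1H2AB was at 50.1 and 43.1 against 95.1 and 85.5 CPM (-0.96 ± 0.11), and the number lower fell to 6 without siH2A.Z.1 replicate 2. These genes are near-identical copies, so reads may be divided between them. In homologous recombination 7 of 29 genes were higher (24.1%, close to the 21.4% of all genes tested) and 2 lower, with BRCA2 at 153 and 155 against 99.5 and 114 CPM (0.53 ± 0.09) and RAD50 at 104 and 122 against 71.4 and 75.7 CPM (0.62 ± 0.08). Without siH2A.Z.2 replicate 1 3 were higher.

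Of 26 p53 targets, 4 were higher (15.4%) and 3 lower (11.5%), and 7 and 3 with library sizes alone. Of 16 BCL2 family genes, 1 was higher (6.25%) and 3 lower (18.75%). Over all genes tested, 21.4% were higher and 26.6% lower. MDM2, which targets p53 for degradation, was at 605 and 633 against 453 and 485 CPM (0.40 ± 0.07), the stress cytokine GDF15 at 12.5 and 12.5 against 3.98 and 2.69 CPM (1.91 ± 0.32), and the kinase PLK2 lower at 68.7 and 74.4 against 163 and 168 CPM (-1.21 ± 0.08). Among the BCL2 family, the pro-apoptotic BID was lower at 7.15 and 7.17 against 12.1 and 11.4 CPM (-0.71 ± 0.13), and the pro-survival BCL2L2 was higher at 50.2 and 53.5 against 37.4 and 36.2 CPM (0.49 ± 0.08).

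Genes of glycolysis and of lipid synthesis were lower upon H2A.Z.1 depletion more often than higher, whereas oxidative phosphorylation was not. Of 32 genes of glycolysis and the hypoxia response, 22 were lower upon H2A.Z.1 depletion (68.75%) and 3 higher (9.38%), with a median of -0.48. Their summed level was 10866 and 11289.8 CPM against 16106 and 16020.1 CPM. LDHA, which turns pyruvate into lactate, was at 358 and 379 against 911 and 999 CPM (-1.38 ± 0.07), and the neuronal-type enolase ENO2 at 98.5 and 99.9 against 235 and 234 CPM (-1.24 ± 0.06). P4HA2, a collagen prolyl hydroxylase induced by hypoxia, was at 55.8 and 58.0 against 134 and 134 CPM (-1.24 ± 0.07). The controls agreed here, with 16279 and 16049 CPM and 16189 and 15518 CPM in sum, close to H2A.Z.2 depletion. The glucose transporter SLC2A3 (GLUT3) went the other way, at 245 and 297 against 93.8 and 105 CPM (1.45 ± 0.09). In oxidative phosphorylation 17 of 82 genes were higher (20.7%, against 21.4% of all genes tested) and 16 lower (19.5%, against 26.6%), so that this list stood no further apart than genes at large (27 and 14 with library sizes alone, and 10 higher without siH2A.Z.2 replicate 1). Within it the catalytic F1 beta subunit of ATP synthase, ATP5B, was at 68.2 and 74.8 against 328 and 329 CPM (-2.20 ± 0.07), and the gamma subunit ATP5C1 at 42.7 and 45.7 against 102 and 118 CPM (-1.31 ± 0.10), whereas the complex I subunit NDUFB9 was higher at 90.6 and 111 against 61.6 and 59.6 CPM (0.73 ± 0.12).

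Of 29 cholesterol and fatty acid synthesis genes, 15 were lower (51.7%, against 26.6% of all genes tested) and 1 higher (3.45%, against 21.4%). The median was -0.40. SCD, the stearoyl-CoA desaturase, was at 553 and 677 against 1108 and 1162 CPM (-0.88 ± 0.09), and FDFT1 (squalene synthase) at 92.1 and 98.0 against 139 and 160.1 CPM (-0.65 ± 0.08). ELOVL6, a fatty acid elongase, was higher at 33.3 and 33.3 against 21.1 and 22.9 CPM (0.60 ± 0.10). Of 33 lysosome and autophagy genes, 14 were lower (42.4%) and 3 higher (9.09%). The sulfatase ARSB was at 10.7 and 11.0 against 35.996 and 36.2 CPM (-1.73 ± 0.09).

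Interferon response and antigen presentation genes were lower for 16 of 35 (45.7%, against 26.6% of all genes tested), with a median of -0.58. None was called higher by edgeR or DESeq2, 3 were higher at an unadjusted p under 0.05, and 3 were called higher with library sizes alone or without siH2A.Z.1 replicate 1. PSMB8, a subunit of the immunoproteasome, was at 2.56 and 3.66 against 21.4 and 24.1 CPM (-2.86 ± 0.15), close to the control libraries in the latter (29.8 and 30.1 and 26.1 and 25.1 CPM). SAMD9, an interferon-induced antiviral factor, was at 9.82 and 12.4 against 35.2 and 38.7 CPM (-1.73 ± 0.12). NF-kB targets and cytokines were even, with 6 of 20 in each direction (30.0%, against 21.4% higher and 26.6% lower over all genes tested). Among the higher were the chemokine CXCL8 at 20.7 and 23.5 against 9.73 and 8.19 CPM (1.30 ± 0.15) and PTGS2, the inducible cyclooxygenase, at 19.7 and 22.9 against 12.8 and 13.1 CPM (0.72 ± 0.15). Among the lower were IL11 at 5.55 and 4.13 against 21.9 and 17.2 CPM (-2.02 ± 0.17) and SOD2, the mitochondrial superoxide dismutase, at 44.3 and 47.1 against 103 and 104 CPM (-1.18 ± 0.07). Immediate early genes and the feedback regulators of MAP kinases also split, 9 higher and 8 lower of 29 (31.0% and 27.6%). JUN was lower at 61.3 and 48.7 against 157 and 109 CPM (-1.28 ± 0.18) and so was DUSP1, a MAP kinase phosphatase, at 44.1 and 36.8 against 132 and 111 CPM (-1.58 ± 0.16). The feedback inhibitor SPRY4 was higher at 35.2 and 30.7 against 4.85 and 4.85 CPM (2.76 ± 0.12), and the transcription factor KLF2 at 16.1 and 15.0 against 1.99 and 1.67 CPM (3.08 ± 0.18).

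After the ribosomal proteins, the list of ER stress and the ATF4 response had the largest share of members higher upon H2A.Z.1 depletion. Of 35 genes, 24 were higher (68.6%, against 21.4% of all genes tested). Lower were 8 (22.9%, close to the 26.6% of all genes tested), and the median was 0.57. The transcription factor ATF4 switches on amino acid synthesis and transport, and a separate branch of the response raises the folding enzymes of the ER. ATF4 itself was higher (log2 fold change 1.15). PSAT1, an enzyme of serine synthesis, was at 169.5 and 166 against 26.5 and 30.0 CPM (2.57 ± 0.08). ASNS, asparagine synthetase, was at 161 and 178 against 35.4 and 37.3 CPM (2.22 ± 0.08), and CHAC1, which degrades glutathione, at 28.4 and 23.7 against 5.30 and 4.28 CPM (2.44 ± 0.16). SLC7A11, the cystine transporter, and TRIB3, a pseudokinase induced by ATF4, were higher too (2.01 and 1.85). On the lower side were PDIA4, an ER disulfide isomerase, at 49.7 and 45.6 against 108 and 106 CPM (-1.17 ± 0.07), SDF2L1, an ER chaperone cofactor, at 17.5 and 9.26 against 35.5 and 22.7 CPM (-1.13 ± 0.27), and the stress factor ATF3 at 31.1 and 30.4 against 73.1 and 59.2 CPM (-1.11 ± 0.22). The other 5 lower members were HSP90B1, HSPA5 (BiP), CALR (calreticulin) and DNAJC3, which are chaperones or cochaperones of the ER lumen, and SLC7A5, an amino acid transporter and ATF4 target, with log2 fold changes from -1.04 to -0.87 except for HSP90B1 at -1.08. Of the 8 lower members, 6 are thus chaperones or folding factors of the ER, a grouping made after the values were seen, and ATF3 and SLC7A5 belong to the ATF4 response. The ER stress members DNAJB9, EDEM1, XBP1 and ERN1 were not among the 8, and HERPUD1 was higher (log2 fold change 1.62). ATF4, SLC7A11, TRIB3, the other 5 lower members and the ER stress members just named were chosen after their values were seen. PSAT1 and ASNS were also above both controls upon H2A.Z.1 depletion, with PSAT1 at 32.1 and 32.8 and 21.4 and 21.6 CPM and ASNS at 59.6 and 66.3 and 31.4 and 32.6 CPM.

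The amino acid response motif TGATGNAA was searched on both strands of RefSeq promoters (GRCh38.p14), from 250 bases before to 50 bases after the start. It was present in 6 of the 21 higher members with a promoter sequence (28.6%) and in 1 of 8 lower members (12.5%). Of all 32 tested members with such a sequence 7 held it (21.9%), against 1.92% of the 12156 tested genes that have one. The list was chosen for this response, so its excess over all genes says nothing about direction. The stretches around it are shown for CHAC1, ASNS and HERPUD1, with the motif or its reverse complement in capitals, to let the site be compared between promoters. HERPUD1, of ER-associated degradation, is added after its values were seen (log2 fold change 1.62).
CHAC1 (chr15:40953254-40953277, plus strand): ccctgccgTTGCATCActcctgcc
ASNS (chr7:97872461-97872484, minus strand): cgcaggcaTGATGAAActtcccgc
HERPUD1 (chr16:56931958-56931981, plus strand): gcggcgggTTGCATCAgcccgtgc
Of all genes called higher with a promoter sequence, 2.68% hold this motif, and of those called lower 1.90%. The cell cycle motif TTTGAA was found in 68.0% of the 25 lower mitosis genes with a promoter sequence, in 70.6% of the 34 tested ones, and in 10.4% of all tested genes with one. It is shown for PRC1 and for the mitotic kinase PLK1 (log2 fold change -0.76, chosen after its values were seen) with the motif in capitals.
PRC1 (chr15:90994540-90994563, minus strand): tggcgcggTTTGAAattttgcggg
PLK1 (chr16:23678852-23678875, plus strand): gcgccgcgTTTGAAttcggggagg
A match is a string of letters and does not show that a factor binds there.

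Cytosolic ribosomal protein genes were higher for 62 of 80 (77.5%, against 21.4% of all genes tested) and lower for 1 (1.25%, against 26.6%). The median was 0.53. Their summed level was 50917 and 50543 CPM upon H2A.Z.1 depletion and 35549 and 37016 CPM upon H2A.Z.2 depletion. The controls lay in between, at 41986 and 41055 CPM and 37418 and 37137 CPM. The 3 with the largest stable difference were alike. RPS25 was at 344 and 351 against 183 and 199.7 CPM (0.86 ± 0.07), RPL34 at 243 and 237 against 125 and 144 CPM (0.84 ± 0.10) and RPL9 at 809 and 924 against 437 and 536 CPM (0.83 ± 0.11). The exception was RPL39L, a paralog of RPL39 known from testis and cancer cells, at 9.93 and 9.26 against 23.1 and 20.0 CPM (-1.17 ± 0.11). Ribosomal proteins have many processed pseudogenes, and reads that fit several places may be missing from these counts. The lean toward the higher side rose to 70 of 80 with library sizes alone.

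Zinc finger genes, many of which encode KRAB repressors and sit in clusters on chromosome 19, were higher more often than lower. Of 427 genes with a name of the form ZNF and a number, 227 were higher (53.2%, against 21.4% of all genes tested). Lower were 35 (8.20%, against 26.6%), and the median was 0.41. With library sizes alone 257 were higher and 24 lower. On chromosome 19, 139 of 205 were higher (67.8%) and 5 lower, with a median of 0.61. On other chromosomes 88 of 221 were higher (39.8%) and 30 lower, with a median of 0.23. Genes of chromosome 19 that are not in this family were higher for 145 of 869 (16.7%), with a median of -0.12. ZNF548 was at 92.7 and 92.8 against 23.1 and 25.4 CPM (1.94 ± 0.08), ZNF135 at 25.1 and 30.8 against 6.34 and 7.58 CPM (2.01 ± 0.14) and ZNF793 at 4.96 and 5.22 against 1.37 and 1.21 CPM (1.98 ± 0.22), all 3 on chromosome 19. The controls of ZNF548, at 34.6 and 33.9 and 24.5 and 25.6 CPM, were much closer to H2A.Z.2 depletion. On the lower side stood ZNF365 of chromosome 10, at 16.1 and 15.1 against 109 and 119 CPM (-2.87 ± 0.09). Paralogous zinc finger genes share sequence, so that reads may be shared or dropped between them.

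Along the chromosomes, the longest runs of neighbouring tested genes called in the same direction were these clusters. The longest was of 23 genes, all higher, at hg38 chr19:36534774-37548762, from ZNF529 to ZNF793, with log2 fold changes from 0.49 to 1.98. Runs of 19 and 16 higher genes lay at chr19:57719751-58342332 and chr19:57389850-57717301. Of the 23 genes in the first, 20 have names that begin with ZNF, ZSCAN or ZFP, as have 18 of the 19 and 14 of the 16. The longest run of lower genes had 9, at chr17:7351889-7514616, and included ZBTB4 and POLR2A, the largest subunit of RNA polymerase II. Neighbours are not independent, and these runs are given as a description.

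**Figure D3:**
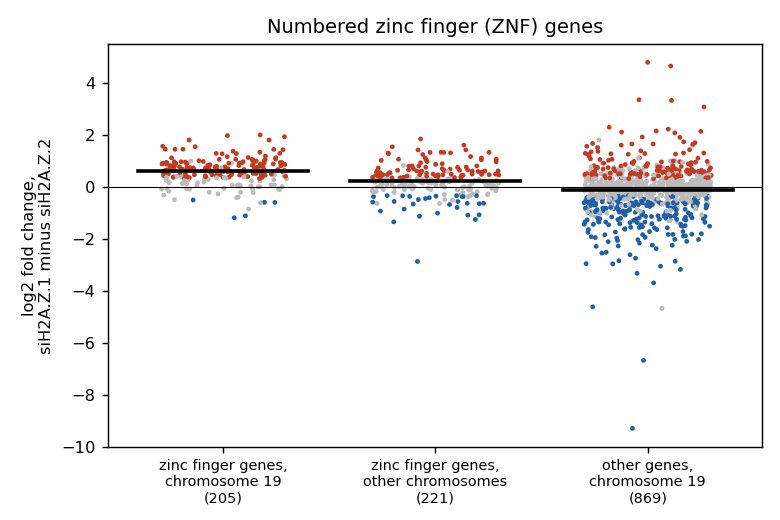
Log2 fold change (siH2A.Z.1 minus siH2A.Z.2) of 205 numbered zinc finger genes on chromosome 19, 221 on other chromosomes, and 869 other genes of chromosome 19. Black bars are medians, at 0.61, 0.23 and -0.12, and red and blue points are genes called higher and lower. Some of the lowest points on the right, such as CGB8, have no count upon H2A.Z.1 depletion, so their fitted values are no measured fold.

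Long noncoding RNAs of the LINC series were higher for 88 of 286 (30.8%, against 21.4% of all genes tested). Lower were 59 (20.6%, against 26.6%), and by DESeq2 58 were higher. LINC01088 was at 1.76 and 3.18 against 0.331 and 0.569 CPM (2.44 ± 0.40) and LINC00707 at 1.65 and 1.52 against 16.8 and 17.1 CPM (-3.41 ± 0.17). By gene type of GENCODE v44, 33.8% of 1035 long noncoding RNA genes were higher and 14.3% lower, against 20.0% and 29.4% of 13915 protein-coding genes. Of 218 snoRNA genes, 20.2% were higher and 0.92% lower. Lower genes had longer annotated transcripts (median 3710.5 bases of the canonical transcript) than higher genes (2964) and genes not called (2893), and spanned more of the genome (median 44403 bases, against 28459 and 28178). GC content of the transcripts was 46.7% (median) for higher, 48.7% for lower and 49.1% for uncalled genes. The chorionic gonadotropin beta genes, a near-identical placental cluster whose reads cannot be divided with certainty, were lower for 3 of 4. CGB8 had no count in either library of H2A.Z.1 depletion and 179 in those of H2A.Z.2 depletion (3.81 and 3.30 CPM), at least 23.5-fold lower against a floor of 3 counts per library.

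Of 22 genes of the complexes that load or remove H2A.Z, 3 were higher (13.6%, against 21.4% of all genes tested) and 2 lower (9.09%, against 26.6%). With library sizes alone 8 were higher and 1 lower. ANP32E, the chaperone that takes H2A.Z off chromatin, was at 74.6 and 67.8 against 96.0 and 102 CPM (-0.48 ± 0.09). ZNHIT1, a subunit of SRCAP, was at 30.4 and 26.1 against 19.6 and 18.3 CPM (0.57 ± 0.11), and EPC1, of the EP400 and TIP60 complex, at 78.7 and 82.1 against 58.4 and 60.6 CPM (0.43 ± 0.07). Of PHF14 with its partners and the sirtuins, 4 of 11 were higher (36.4%) and 1 lower (9.09%), a list of few members. PHF14 was at 144 and 138 against 99.95 and 98.0 CPM (0.51 ± 0.07; edgeR, adjusted p = 6.97e-05). SIRT1 was at 58.0 and 56.2 against 47.0 and 51.4 CPM (0.21 ± 0.08) and did not exceed the fold threshold. Genes often used as a reference in RT-qPCR were lower for 6 of 14 (42.9%) and higher for 1 (7.14%), and 3 and 3 with library sizes alone. YWHAZ was at 787 and 841 against 1081 and 1218 CPM (-0.50 ± 0.09), HPRT1 at 26.7 and 22.4 against 40.5 and 41.0 CPM (-0.73 ± 0.11) and TBP at 26.4 and 27.2 against 15.7 and 16.3 CPM (0.74 ± 0.11).

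Of 6 genes that the study followed by RT-qPCR in WI38 fibroblasts, another cell line, 3 were lower and 1 was higher here. AKAP12, a scaffold of protein kinase A, was lower at 97.9 and 113 against 242 and 236 CPM (-1.18 ± 0.08), beside PLAT and ADAMTS1 above. COLEC12, a scavenger receptor of low level here, was at 2.08 and 1.85 against 1.08 and 1.02 CPM (0.90 ± 0.28; edgeR, adjusted p = 0.0182), and its call was lost by DESeq2 and without siH2A.Z.1 replicate 1 or either library of H2A.Z.2 depletion (adjusted p 0.056 to 0.091). The palmitoyltransferase ZDHHC20, at 105 and 92.0 against 113 and 123 CPM (-0.27 ± 0.09), and RRM2, of ribonucleotide reductase, at 154 and 159.7 against 175 and 183 CPM (-0.19 ± 0.07), stayed below the fold threshold. ZDHHC20 was at 26.8 and 27.3 CPM with siCtrl 3 and 69.1 and 76.4 CPM with siCtrl 4, so both depletions were above both controls while differing little from each other.

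In the combined depletion, genes that separate the single depletions were mostly at intermediate levels. On the scale of log2(CPM + 0.1) of the group means, 62.3% of the 7909 called genes lay nearer to H2A.Z.1 than to H2A.Z.2 depletion, and the median position was 0.59 of the way from siH2A.Z.2 to siH2A.Z.1. Among stable calls above 2-fold, 74.6% of 739 higher and 67.3% of 1542 lower genes lay nearer to H2A.Z.1 depletion. These genes were chosen on the single depletions that serve as end points, and no test was run. The combined libraries received both siRNAs, with H2AFZ at 22.5 and 22.1 CPM and H2AFV at 80.4 and 71.1 CPM.

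Seed matches of the siRNAs went along with the direction of the difference. Of 1000 genes whose canonical 3'UTR holds UGAUUGA, the 7 bases complementary to the H2A.Z.1 guide seed, and no match to the other seed, 40.1% were lower and 13.8% higher upon H2A.Z.1 depletion. Of 10187 genes with neither match, 28.1% were lower and 19.7% higher. Of 2164 genes with only the H2A.Z.2 match, UGUGUUG, 28.7% were lower and 24.3% higher. Medians were -0.20, -0.04 and -0.02 on the log2 scale. Genes with a match have longer 3'UTRs (median 2800 bases for the H2A.Z.1 and 2679 for the H2A.Z.2 match alone, 931 with neither). Within each of 4 classes of 3'UTR length with equal numbers of genes, a larger share of genes with the H2A.Z.1 match was lower (37.2% to 40.0%) than of genes without it (21.0% to 32.8%). In the same classes a larger share of genes with the H2A.Z.2 match was higher (22.7% to 26.1%) than of genes without it (18.6% to 20.3%). The part of seed matches in the difference of any single gene was not tested. Of the 10 genes with the largest lower values, 9 have a 3'UTR in the annotation and 0 of them hold the H2A.Z.1 match, while EFR3B and GNAQ hold that of H2A.Z.2. Of the 10 with the largest higher values, KIAA1210 and PLCH1 hold the H2A.Z.1 match and MYCT1 that of H2A.Z.2. The 3'UTR of H2AFV holds both matches.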

How the data were processed

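Total RNA of U2OS cells was depleted of rRNA and sequenced paired-end on an Illumina NextSeq for 10 libraries. According to the study's methods, the authors aligned reads to hg38 with STAR, sorted and indexed them with SAMtools and counted them per RefSeq gene on the sense strand with HTSeq 0.6.1. The deposited values used here are these raw counts, 23089 genes by 10 libraries, not normalised. The other 3 deposited tables hold the authors' own DESeq2 comparisons of depletions with controls and were not used.

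Counts were fitted with edgeR 4.0.16 (R 4.3.3): TMM factors, its standard low-count filter (16486 genes kept), 1 quasi-likelihood model with 5 groups over all 10 libraries (5 residual degrees of freedom), and a two-sided F test of siH2A.Z.1 minus siH2A.Z.2. A gene was called at an adjusted p (Benjamini-Hochberg, over all genes tested) under 0.05 and a fold above 1.25. SE was the log2 fold change divided by the root of F. Replicate libraries differed by more than counting noise, and none was counted as a duplicate. For single values an exact permutation of 2 against 2 libraries cannot go below p = 0.333, so none is given. Alternatives were 3 other scalings, no filter, a 2-fold threshold, the 4 libraries alone, a replicate block, each library left out and DESeq2 1.42.0. The fit was checked on simulated counts.

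Named were 10 genes of the study and, among calls that kept their sign in all 10 leave-one-out fits and the other scalings, the 10 largest fold changes (mean of at least 5 CPM, groups that do not overlap) and 5 largest CPM differences in each direction, and up to 3 genes per list and direction. Genes said to be chosen after their values were seen, and genes named within a run of neighbours, stand outside this rule. The comparison and the 34 gene lists were chosen with earlier results of these data known. Positions and 3'UTRs come from GENCODE v44, matched by symbol for 21256 genes. Intervals and floors cover counting error only. Some genes that met the rule are not reported here.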

Additional observations from a re-analysis of the deposited data

How the results depend on the processing

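The number of genes higher or lower upon H2A.Z.1 than upon H2A.Z.2 depletion stayed within 1.5 times of the reported counts in every alternative but a 2-fold threshold, which left 962 and 1810. Leaving out each library in turn gave 3246 to 3948 higher and 3723 to 4313 lower genes. Which side held more genes did depend on the scaling: 54.6% of called genes were higher with upper-quartile factors and 55.2% with library sizes alone, against 44.6% with TMM and 46.7% with RLE factors, and these factors also turned the sign of the median of the lists of H2A.Z loading and removal, p53 targets, the BCL2 family, NF-kB targets, cadherins, the Hippo pathway and HOX genes. DESeq2 called 3100 higher and 3839 lower genes and shared 6789 of the 7909 calls, the 4 libraries alone gave 3293 and 4162, and no low-count filter 4029 and 4425. A block for the replicate number gave 3548 higher and 4400 lower genes, and 7834 of the calls were shared. The same-numbered libraries of the 2 depletions deviated together (correlation 0.274 over genes), but with 2 pairs and no batch in the labels the number was not taken as a pairing. The genes named by the rule were chosen to keep their calls in the other scalings and leave-one-out fits, so only the 10 genes of the study could lose one there. Among those 10, COLEC12 alone lost its call. ZDHHC20 (without siH2A.Z.2 replicate 1, log2 fold change -0.34) and SIRT1 (without siH2A.Z.2 replicate 2, 0.33) then exceeded the fold threshold. Among list counts of 10 or more, those that moved by over 1.5 times other than by the 2-fold threshold are given beside them above. Smaller counts moved with single libraries. Without siH2A.Z.1 replicate 1, 5 DNA replication, 4 G1, 7 lysosome and 6 H2A.Z loading genes were higher. Without siH2A.Z.2 replicate 2 these were 6 DNA replication, 4 G1 and 5 lysosome genes, 1 interferon gene was higher, and 5 p53 targets were lower. Without siH2A.Z.2 replicate 1, 5 Hippo genes and 1 histone gene were higher, and without siH2A.Z.1 replicate 2, 2 HOX genes, 2 mitosis genes and 1 osteoblast gene. Leaving out either siCtrl 4 library or either library of the combined depletion gave 7 p53 targets, 5 H2A.Z loading genes and 5 integrin or laminin genes that were higher, and 3 reference genes each way. Depth limits the low genes, above all upon H2A.Z.1 depletion, and 2 libraries per depletion limit the rest.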
